A study of Mus musculus with 6 samples.

Results

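The phagocyte NADPH oxidase was followed through its subunit genes Cybb, Cyba, Ncf1, Ncf4 and Rac2 in RNA-sequencing of the mouse pancreas. These 5 genes were taken by name, not by their values, from the 22556 genes in the tables, and all 5 were among the 16814 genes tested. Pancreas was taken from 6 wild type C57BL/6 mice aged 8 weeks, 2 in each of 3 groups. The saline controls received saline. The cerulein mice received repeated injections of cerulein, a cholecystokinin analogue that causes acute pancreatitis (AP). The polyI:C mice received polyI:C, a synthetic double-stranded RNA that stimulates Toll-like receptor 3 and type I interferon, before the same cerulein course (labelled polyI:C plus cerulein and called polyI:C mice below). Mice given polyI:C without cerulein were not analysed here, so an effect of polyI:C on the subunits outside pancreatitis cannot be told apart from its effect within it. The whole organ was sequenced, so each value is a mean over acinar, duct, stromal and immune cells. Levels are in TPM, a unit scaled for library size and transcript length, so that genes can be compared with each other.

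The oxidase is the enzyme with which neutrophils and macrophages make superoxide. Cybb (gp91phox, also called Nox2) is the catalytic subunit and Cyba (p22phox) its membrane partner, and the pair sits in the membrane as flavocytochrome b558. At rest Ncf1 (p47phox, the organiser) and Ncf4 (p40phox, which binds a phosphoinositide on phagosomes) stay in the cytosol, and on stimulation they move to the membrane together with the GTPase Rac2 and switch the enzyme on. Most of these genes are transcribed mainly in leukocytes, whereas Cyba is also transcribed in many other cells, where its product partners other NADPH oxidases.

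The start regions of the subunit genes are shown because interferon regulatory factors (IRF) are known to act on Cybb and polyI:C is an inducer of type I interferon. RefSeq start regions (build GRCm38.p6) were at hand for 3 of the 5 genes, Cybb, Ncf1 and Cyba. The 250 bases before each start are printed 5′ to 3′ on the strand of the gene, with capitals marking each match to the IRF repeat (GAAA, any 2 bases, then GAAA) on either strand. The Cybb region is at chrX:9469325-9469574, the Ncf1 region at chr5:134229626-134229875 and the Cyba region at chr8:122432941-122433190, all on the minus strand.
Cybb: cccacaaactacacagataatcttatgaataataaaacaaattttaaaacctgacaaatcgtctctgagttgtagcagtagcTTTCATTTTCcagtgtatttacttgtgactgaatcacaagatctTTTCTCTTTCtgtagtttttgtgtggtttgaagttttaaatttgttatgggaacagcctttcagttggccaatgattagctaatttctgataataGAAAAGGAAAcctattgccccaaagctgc
Ncf1: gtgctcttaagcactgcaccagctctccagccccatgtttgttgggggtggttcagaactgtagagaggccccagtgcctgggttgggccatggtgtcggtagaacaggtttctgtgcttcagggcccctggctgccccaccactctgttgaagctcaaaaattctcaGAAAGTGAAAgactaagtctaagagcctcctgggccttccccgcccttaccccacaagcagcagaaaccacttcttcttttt
Cyba: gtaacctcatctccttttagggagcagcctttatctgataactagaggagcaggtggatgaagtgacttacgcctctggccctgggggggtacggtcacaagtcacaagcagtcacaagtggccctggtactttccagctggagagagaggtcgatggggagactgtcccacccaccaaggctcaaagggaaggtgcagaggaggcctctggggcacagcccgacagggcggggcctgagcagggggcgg
The Cybb region held 3 matches, from −168 to −159 and from −124 to −115 on the opposite strand and from −29 to −20 on the strand of the gene. The Ncf1 region held 1 match, from −82 to −73, and the Cyba region none. Among all 32851 start regions of this length 2.98% held the repeat. Cybb also had a CCAAT box from −56 to −52, a motif in 33.8% of all start regions. None of these 3 regions held the PU.1 core GAGGAA (23.3% of all regions), the ETS-IRF composite (GGAA, any 2 bases, then GAAA, 2.3%), the C/EBP letters TTNCNNAA (36.8%) or the TATA box TATAAA (12.4%). All motifs were searched on both strands, and the ETS-IRF composite can overlap the IRF repeat. Only the letters given were searched, so a region without a match can still hold another form of such a site. The regions differed in base composition, with 34% G and C in Cybb, 54.4% in Ncf1 and 60% in Cyba against a median of 52.4% over all regions. These matches describe the sequence only, and binding was not measured. In the GENCODE M21 annotation Cybb spans more than the RefSeq start, so other Cybb transcripts begin upstream of the region shown.

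Differences between groups were tested with limma on log2(TPM + 0.5) over all tested genes, and a gene was called when the Benjamini-Hochberg adjusted p was at most 0.05 and the fold change at least 2. Because of the added 0.5, the fold changes of low genes such as Ncf4 come out too small. In cerulein mice against saline controls 18.2% of tested genes were called higher (3053) and 4.03% lower (677), with a median log2 fold change over all genes of 0.45. Scaling the values by the median of ratios shifted this comparison by −0.41 and gave 1564 genes higher and 1226 lower. In polyI:C against cerulein mice 0.44% were called higher (74) and 0.404% lower (68), with a median of 0.04. Against saline controls 16.9% were called higher in polyI:C mice (2838) and 2.97% lower (500), with a median of 0.48, and the same scaling shifted this comparison by −0.43 to 1324 and 984. Each member had the same call under both scalings. The spacing of low values pointed to about 3296709 to 3972004 gene-assigned reads in the saline controls, 6931823 and 8846552 in the cerulein mice and 8817291 and 10851958 in the polyI:C mice, so low genes were measured least precisely in the saline group.

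Of the 5 subunits, 4 rose in cerulein mice against saline controls (Cybb, Cyba, Ncf1 and Ncf4) and none fell, beside the 18.2% of all genes called higher. With polyI:C pretreatment Cybb fell against cerulein mice, beside 0.404% of all genes called lower, and its mean was 5.13 TPM beside 5.84 TPM in saline controls. Cyba was at 3.70 times the saline mean in polyI:C mice and was the only subunit called higher in polyI:C than in saline controls, beside 16.9% of all genes. In whole tissue fewer leukocytes and less subunit RNA per leukocyte cannot be told apart.

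**Figure D1:**
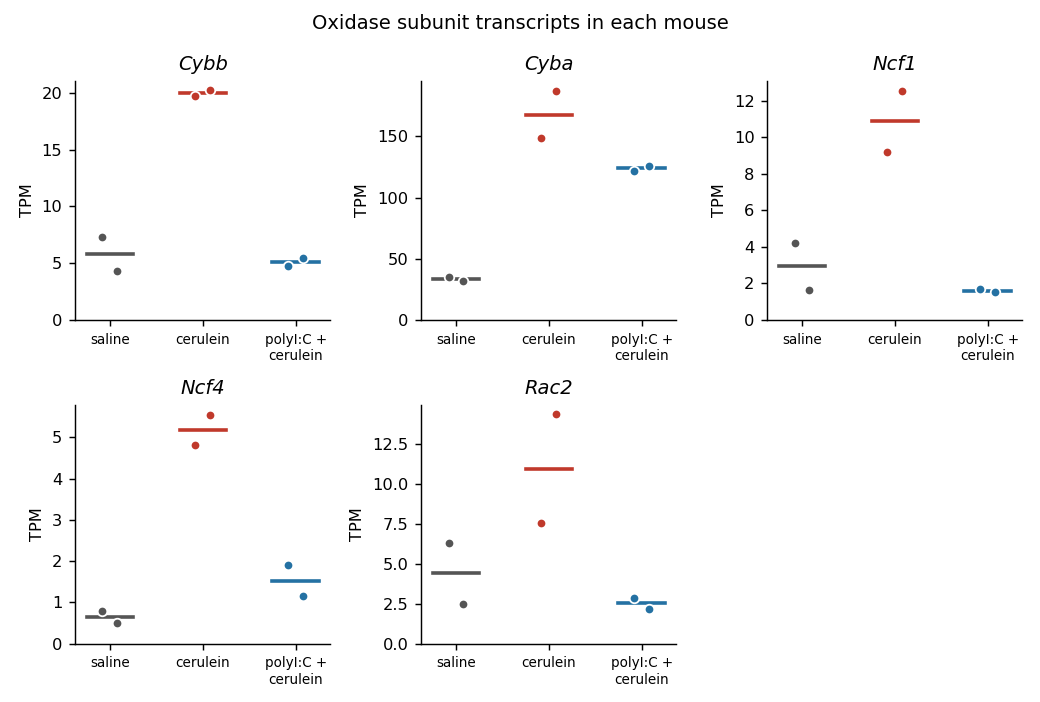
Transcript level in TPM (vertical axis, from 0, with its own scale in each panel) of the 5 oxidase subunits in the 3 groups. Points are single mice (replicate 1 left, 2 right) and bars are group means. All panels have the cerulein mice highest, and only for Cyba do the polyI:C mice (122 and 125 TPM) lie nearer to the cerulein mice (148 and 187) than to the saline controls (31.5 and 35.5).

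Cybb, the catalytic subunit, was at 7.35 and 4.34 TPM in the saline controls and 19.8 and 20.2 TPM in the cerulein mice, with 4.77 and 5.49 TPM in polyI:C mice. Both cerulein mice lay above all other mice, and the saline and polyI:C ranges overlapped. Group means were 5.84 ± 2.13, 20 ± 0.348 and 5.13 ± 0.506 TPM (SD, n = 2). The rise under cerulein was 1.73 on the log2 scale (95% interval 1.15 to 2.32, adjusted p = 0.00192). With polyI:C, Cybb fell by 1.87 against cerulein mice (95% interval −2.46 to −1.28, adjusted p = 0.0264), and the difference from saline controls was −0.13 (−0.72 to 0.45, adjusted p = 0.700). That fall kept its direction and size in all alternatives (−1.98 to −1.78), but its call was lost in 7 of the 16. It was lost without a filter on low values (adjusted p = 0.0589), with the variance prior following the mean log2 value (0.0978) and without a variance trend (0.146), and it rested on each of the 4 mice compared. Without cerulein mouse 1 or 2 the adjusted p was 0.323 or 0.344, and without polyI:C mouse 1 or 2 it was 0.186 or 0.254, over a range of 0.00338 to 0.344 for the 16 alternatives. Without polyI:C mouse 2 and without either cerulein mouse, limma called no gene at all among the 16814 (1523, 1511 and 1421 had an unadjusted p under 0.05).

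Cyba, the membrane partner that stabilises Cybb, was the most abundant subunit in every mouse. It was at 35.5 and 31.5 TPM in the saline controls and 148 and 187 TPM in the cerulein mice, with 122 and 125 TPM in polyI:C mice. No ranges overlapped. The rise under cerulein was 2.30 on the log2 scale (95% interval 1.93 to 2.67, adjusted p = 0.000142) and was called in all 16 alternatives (adjusted p from 0.000127 to 0.0120). Between cerulein and polyI:C mice the difference was −0.43 (−0.80 to −0.06, adjusted p = 0.289), and this interval reached no lower than −0.80. Against saline controls Cyba remained higher by 1.87 (1.5 to 2.24, adjusted p = 0.000292), again in all 16 alternatives (adjusted p from 0.000266 to 0.0155). Of the rise from saline to cerulein mean levels, 67.2% was present in the polyI:C mice. Cyba overlaps Gm20388 on the opposite strand, a gene without a value in the tables, and the strand setting of the read counting is not given in the sources used here.

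Ncf1, the organiser of the cytosolic subunits, was at 4.24 and 1.62 TPM in the saline controls and 9.21 and 12.5 TPM in the cerulein mice, with 1.68 and 1.54 TPM in polyI:C mice. The saline controls differed from each other more than the polyI:C mice did, and saline mouse 2 was as low as the polyI:C mice. The rise under cerulein was 1.83 on the log2 scale (0.83 to 2.83, adjusted p = 0.0132). This call was lost without cerulein mouse 1 or 2 (adjusted p = 0.0907 and 0.156) and without polyI:C mouse 1 or 2 (0.0635 and 0.0556), over a range of 0.00844 to 0.156 in the alternatives. Ncf1 had the largest difference between cerulein and polyI:C mice of the 5 subunits, −2.41 (−3.41 to −1.41), which missed the threshold (adjusted p = 0.0576). The alternatives gave adjusted p from 0.0147 to 0.506 for it, and passed it with a pseudocount of 1 (0.04995), with the pair of groups fitted alone (0.0497) and with voom on estimated reads (0.0147). Against saline controls the difference was −0.59 (−1.59 to 0.41, adjusted p = 0.312). Without saline mouse 2 it was −1.17 and called (adjusted p = 0.0467), over a range of 0.0467 to 0.995 in the alternatives. Ncf1 shares part of its locus with Gtf2ird2 on the opposite strand, and Gtf2ird2 was between 3.75 and 5.10 TPM in all 6 mice.

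Ncf4, the phosphoinositide-binding subunit, had the lowest mean in every group, at 0.804 and 0.494 TPM in the saline controls and 4.81 and 5.54 TPM in the cerulein mice, with 1.90 and 1.16 TPM in polyI:C mice. The groups did not overlap, and the polyI:C mice lay between the others. The saline values correspond to about 2.37 and 1.19 reads if the annotated exon length is used, so the rise of 2.31 on the log2 scale (1.17 to 3.45, adjusted p = 0.00870) has a poorly measured base. It was not called without cerulein mouse 1 (adjusted p = 0.0655) or cerulein mouse 2 (0.0869), over a range of 0.00768 to 0.0869. The difference between polyI:C and cerulein mice was −1.5 (−2.64 to −0.36, adjusted p = 0.230), and that from saline controls 0.81 (−0.33 to 1.95, adjusted p = 0.228). Of the rise from saline to cerulein mean levels, 19.5% was present with polyI:C.

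Rac2, the GTPase that completes the active enzyme, was at 6.32 and 2.5 TPM in the saline controls and 7.55 and 14.4 TPM in the cerulein mice, with 2.89 and 2.20 TPM in polyI:C mice. Cerulein mouse 2 had nearly double the level of cerulein mouse 1, and saline mouse 1 came close to the latter. The difference between cerulein mice and saline controls was 1.28 (0.12 to 2.43) and missed the threshold (adjusted p = 0.0770). It was called without saline mouse 1 (1.87, adjusted p = 0.0437), over a range of 0.0437 to 0.433 in the alternatives. Between polyI:C and cerulein mice it was −1.86 (−3.01 to −0.70, adjusted p = 0.149), and against saline controls −0.58 (−1.73 to 0.57, adjusted p = 0.386). Rac2 is also expressed in lymphocytes, and the summed level of 7 B cell genes was 53.4 TPM in cerulein mouse 2, against 6.71 TPM in cerulein mouse 1 and 2.28 to 16.9 TPM in the other mice. Only in polyI:C mouse 2 were any of these B cell genes at 0 (Pax5 and Blk). The part of the B cell genes in the Rac2 level was not tested.

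**Figure D2:**
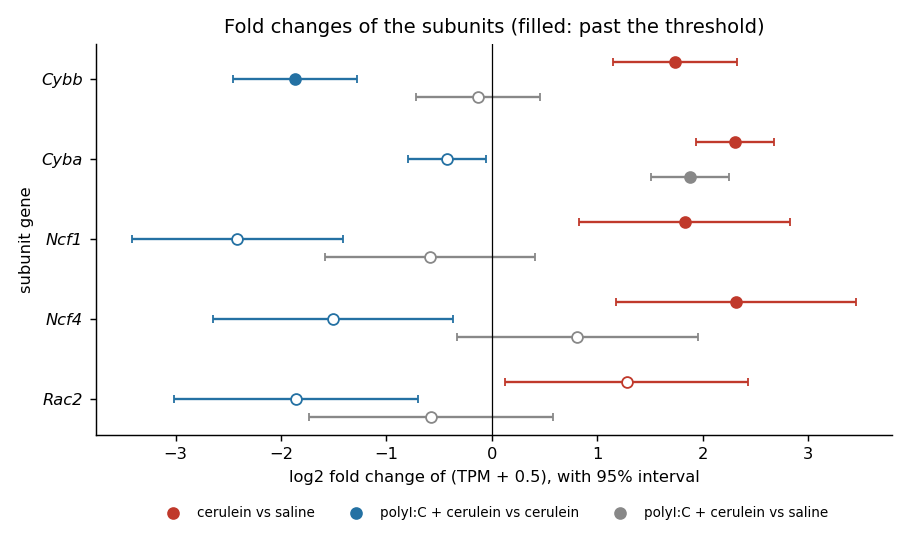
Fold changes on the log2(TPM + 0.5) scale (horizontal axis) with their 95% intervals for the 5 subunits in the 3 comparisons, each group of 2 mice. Filled points passed an adjusted p of 0.05 and a fold of 2. In cerulein mice against saline controls all but Rac2 passed, in polyI:C against cerulein mice only Cybb (−1.87) passed, on the lower side, and in polyI:C mice against saline controls only Cyba (1.87) passed, on the higher side.

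In order of the mean TPM, Cyba (33.5), Cybb (5.84), Rac2 (4.41), Ncf1 (2.93) and Ncf4 (0.649) followed each other in saline controls, where Rac2 overlapped both Cybb and Ncf1. In cerulein mice the order was Cyba (168), Cybb (20), Rac2 (11.0), Ncf1 (10.9) and Ncf4 (5.17), with Rac2 and Ncf1 overlapping. In polyI:C mice it was Cyba (124), Cybb (5.13), Rac2 (2.54), Ncf1 (1.61) and Ncf4 (1.53), and the last pair overlapped. Cyba made up 70.8% of the summed TPM of the 5 subunits in saline controls, 78.1% in cerulein mice and 92.0% in polyI:C mice. The ranges of all 5 members were higher under cerulein than in saline controls, as for 52.6% of all tested genes, and lower in polyI:C than in cerulein mice, as for 22.1%. Against saline controls the polyI:C range was higher for Cyba and Ncf4, as for 54.4% of all genes, and overlapped for the other members.

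The gap between Cyba and the other subunits was measured directly as the log2 level of Cyba minus the mean log2 level of the other 4. It was 3.08 and 3.77 in the saline controls, 3.96 and 3.91 in the cerulein mice and 5.30 and 5.53 in the polyI:C mice. The gap was thus widest in both polyI:C mice, by 1.48 on average against cerulein mice and by 2.00 against saline controls. An exact two-sided permutation test gave p = 0.33 for each, the smallest that 2 mice against 2 allow. The markers of duct cells, which are not leukocytes, also stayed high with polyI:C. Their summed level over 7 genes was 2009 and 2417 TPM in the saline controls and 30424 and 32358 TPM in the cerulein mice, with 28718 and 21682 TPM in polyI:C mice, none of the 7 was at 0, and 5 were called higher against saline controls with and without polyI:C (4 and 3 with the other scaling). Over all genes 18.2% were called higher under cerulein and 16.9% in polyI:C mice, both against saline controls. The part of duct cells in the Cyba level was not tested.

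Genes that leukocytes of every type share place the subunits beside the immune cell content of the tissue. The summed level of 8 such genes was 74.1 and 78.5 TPM in the saline controls and 246 and 333 TPM in the cerulein mice, with 79.8 and 80.0 TPM in polyI:C mice, and none was at 0. Of these 8, 6 rose in cerulein mice (3 with the other scaling, 2 to 6 when a mouse was left out), and Coro1a (−2.35, adjusted p = 0.00520) and Cd53 (−2.17, adjusted p = 0.0161) fell in polyI:C against cerulein mice (0 to 2). None passed in polyI:C against saline controls by limma, where none had an unadjusted p under 0.05 and voom called none, but 0 to 1 passed when a mouse was left out. The median difference there was 0.0022, and −0.43 with the other scaling. Relative to the mean log2 level of these genes, Cybb was at −0.42 ± 0.44 in saline controls, −0.38 ± 0.29 in cerulein mice and −0.52 ± 0.27 in polyI:C mice (SD, n = 2), so its ranges overlapped in every pair of groups. Cyba was at 2.04 ± 0.06, 2.65 ± 0.07 and 3.94 ± 0.17 on this scale, without overlap. Ncf1 was at −1.38 ± 0.76, −1.24 ± 0.01 and −1.94 ± 0.07, with both polyI:C mice below both cerulein mice and the saline controls spread across the others. Ncf4 was at −2.85 ± 0.22, −2.23 ± 0.18 and −2.02 ± 0.24, with saline controls lowest and the other groups overlapping. Rac2 was at −0.86 ± 0.78, −1.28 ± 0.32 and −1.42 ± 0.09, with every pair of groups overlapping.

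**Figure D3:**
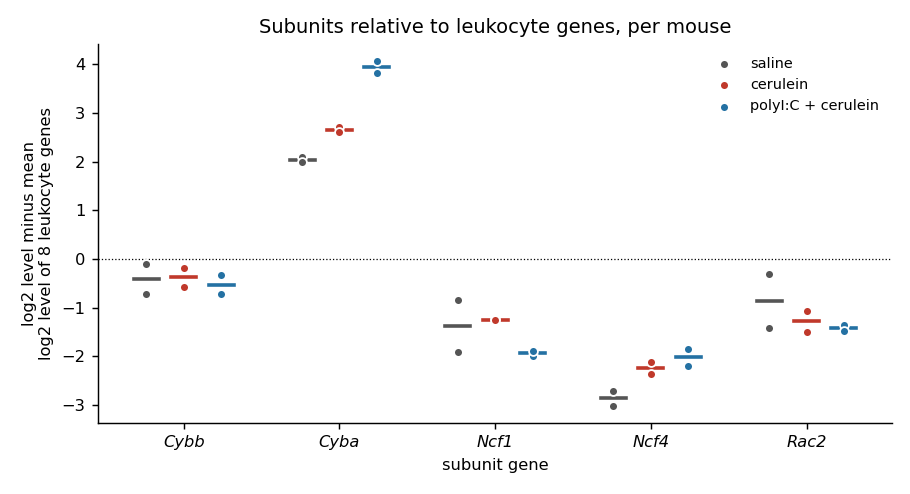
Log2 level of each subunit minus the mean log2 level of 8 leukocyte genes (vertical axis, log2 units of TPM + 0.5) in each mouse. Points are mice and bars are group means of 2. Cyba lies at mean values of 2.04, 2.65 and 3.94, while the Cybb and Rac2 points overlap between groups.

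With other reference genes these relative levels moved, by the same amount for every subunit within a comparison. This follows from the measure, since in each mouse 1 reference level is subtracted from every subunit. Against the mean of 14 monocyte and macrophage genes, the difference between cerulein mice and saline controls was −0.62 for Cybb, −0.05 for Cyba, −0.52 for Ncf1, −0.04 for Ncf4 and −1.07 for Rac2. With this reference the difference between polyI:C and cerulein mice differed little from that with the leukocyte genes, at −0.11 against −0.15 for Cybb, 1.33 against 1.29 for Cyba, −0.65 against −0.69 for Ncf1, 0.25 against 0.22 for Ncf4 and −0.10 against −0.14 for Rac2. Against the neutrophil genes, the same difference was −1.29 for Cybb, 0.15 for Cyba, −1.83 for Ncf1, −0.92 for Ncf4 and −1.27 for Rac2. This last reference had 12 genes, of which 7 were tested, and 2 to 8 of the 12 were at 0 in each mouse. The added 0.5 therefore sets much of its level. The summed level of the 14 monocyte and macrophage genes was 762 and 490 TPM in the saline controls and 3042 and 3604 TPM in the cerulein mice, with 832 and 694 TPM in polyI:C mice, with none at 0. Of these, 11 rose under cerulein (6 to 13 when a mouse was left out) and 5 fell in polyI:C against cerulein mice (Csf1r, Lyz2, Fcgr1, Ccr2 and Chil3, 0 to 6). Against saline controls 4 of these 14 genes were called higher in polyI:C mice (Cd14, Cd68, Fcgr1 and C1qa) and 2 lower (Csf1r and Lyz2). The median there was 0.78, or 0.36 with the other scaling. Lyz2 had the largest part of the sum in saline and cerulein mice. It was at 444 and 307 TPM in saline controls, 1891 and 2118 TPM in cerulein mice and 203 and 119 TPM in polyI:C mice. Over the 12 of 16 with a value the neutrophil genes summed to 18.2 and 5.80 TPM in saline controls, 73.6 and 66.3 TPM in cerulein mice and 45.4 and 23.2 TPM in polyI:C mice. Elane, the neutrophil elastase gene, was listed at 0 in all saline and cerulein mice, and 4 further markers (Ly6g, Mpo, Ngp and Cxcr1) were not analysed here. Among the 7 neutrophil genes tested, S100a9, Retnlg and Mmp8 rose under cerulein (0 to 3 when a mouse was left out, 1 with the other scaling and 2 with voom), and none passed in polyI:C against cerulein mice (2 lower at an unadjusted p under 0.05, 1 lower by voom). The 10 T and NK cell genes summed to between 4.51 and 12.4 TPM in all mice. Of the acinar genes 4 of 13 had values, with sums of 964 and 775 TPM in saline controls, 235 and 187 TPM in cerulein mice and 478 and 518 TPM in polyI:C mice, which places the tissue as pancreas by Amy2a5, Ptf1a, Rbpjl and Bhlha15 only. What part these cell types had in the subunit levels was not tested.

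**Figure D4:**
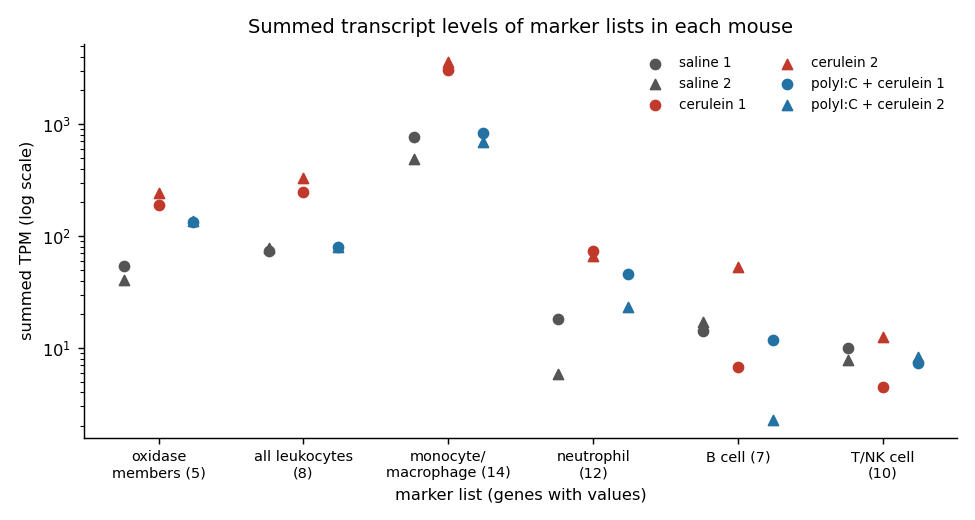
Summed TPM (vertical axis, log scale) of the 5 subunits and of marker genes of leukocytes in each mouse. Circles are replicate 1 and triangles replicate 2. The monocyte and macrophage sum is highest in the cerulein mice (3042 and 3604 TPM), and the B cell sum stands apart in cerulein mouse 2 (53.4 TPM).

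The genes around the oxidase were grouped by their role. Of 15 assembly genes 8 rose under cerulein, none fell, and their median log2 change was 1.41 against 0.45 over all genes (with the other scaling 7 rose, and 3 to 7 when a mouse was left out). Dock2, an exchange factor that loads Rac with GTP in leukocytes, was the 1 assembly gene of these 15 to fall in polyI:C against cerulein mice (−1.92, adjusted p = 0.0190), and with any mouse left out 0 of the 15 passed. Cybc1, the chaperone of the Cybb and Cyba pair, rose under cerulein by 1.48 (adjusted p = 0.0025) and was 1.15 higher in polyI:C than in saline controls (adjusted p = 0.00724). The kinase gene Prkcd, whose product phosphorylates p47phox, rose under cerulein by 1.87 (adjusted p = 0.00113) and was 1.39 higher in polyI:C than in saline controls (adjusted p = 0.00390). In the latter comparison 5 of the 15 passed, 1 with the other scaling and 0 to 4 when a mouse was left out.

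Of 12 tested receptors that trigger the oxidase 10 rose under cerulein, with a median of 2.66 (7 with the other scaling, 4 to 9 with a mouse left out), and 3 fell in polyI:C against cerulein mice, with a median of −1.45 against 0.04 over all genes (0 to 3 with a mouse left out). Over all genes 18.2% were called higher in the first of these comparisons and 0.404% lower in the second. C5ar1, the receptor of complement C5a, was at 0.862 and 0.303 TPM in the saline controls and 9.85 and 12.4 TPM in the cerulein mice, with 0.755 and 1.09 TPM in polyI:C mice, and it fell by 3.03 with polyI:C (adjusted p = 0.0260). Itgam, the alpha chain of complement receptor 3, fell by 2.36 (adjusted p = 0.0191), and Fcgr1, the high-affinity IgG receptor, by 2.35 (adjusted p = 0.0161). The saline and polyI:C ranges overlapped for C5ar1, whereas Fcgr1 remained higher than in saline controls by 1.44 (adjusted p = 0.00454). Tlr2, a receptor for bacterial lipopeptides, remained higher by 2.11 (adjusted p = 0.00134).

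Enzymes that supply NADPH, the electron donor of the oxidase, were followed through 7 genes. Of these 6 rose under cerulein (median 1.66), and 6 were higher in polyI:C than in saline controls (median 2.20), both also with the other scaling and with each mouse left out. Over all genes 18.2% and 16.9% were called higher in these comparisons, with medians of 0.45 and 0.48. G6pdx, the first enzyme of the pentose phosphate pathway, was at 12.3 and 11.6 TPM in the saline controls and 41.1 and 42.4 TPM in the cerulein mice, with 45.0 and 46.1 TPM in polyI:C mice. None of the 7 was called between polyI:C and cerulein mice by limma (3 were higher at an unadjusted p under 0.05, and voom called none). Of these Idh1, the cytosolic isocitrate dehydrogenase gene, passed the adjusted p but not the fold of 2 (0.84 higher with polyI:C, adjusted p = 0.0295). Of 9 genes of antioxidant defence, Prdx1 (1.69) and Gpx1 (1.3), whose products remove peroxides, and Hmox1 (3.50) were called higher under cerulein. None was called lower (median 0.40, and −0.02 with the other scaling, which called 2). Sod2, the mitochondrial superoxide dismutase gene, was lower by −0.53 (adjusted p = 0.00726) and Gpx4 higher by 0.79 (adjusted p = 0.00267). Both passed the adjusted p by limma but not the fold of 2. Sod2 was at 114 and 133 TPM in saline controls, 85.3 and 84.7 TPM in cerulein mice and 90.9 and 84.1 TPM in polyI:C mice. Hmox1 encodes heme oxygenase, which breaks down heme and does not itself remove superoxide or peroxide. It was at 6.43 and 5.03 TPM in the saline controls and 68.9 and 69.8 TPM in the cerulein mice, with 39.1 and 38.1 TPM in polyI:C mice, a difference between the latter groups of −0.84 (adjusted p = 0.0756). No gene of these 9 was called there by limma (3 higher and 1 lower at an unadjusted p under 0.05, none by voom).

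**Figure D5:**
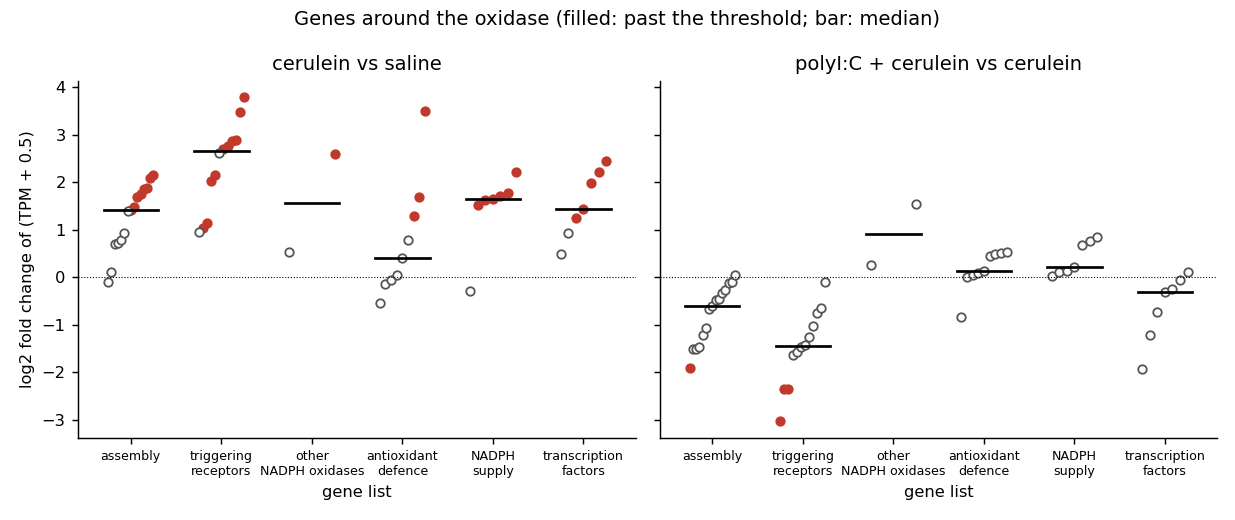
Log2 fold change of TPM + 0.5 (vertical axis) of each tested gene in 6 groups of genes around the oxidase (horizontal axis), in cerulein mice against saline controls (left) and polyI:C against cerulein mice (right). Filled points passed the threshold and bars are medians. The triggering receptors have medians of 2.66 and −1.45, and the NADPH supply genes of 1.66 and 0.21.

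The list of other NADPH oxidases and their partner proteins had 8 genes with values. Of the catalytic subunits, Nox1 was listed at 0 in both saline controls and reached 1.48 TPM at most, and Nox4 was between 0.421 and 0.642 TPM in all mice. Of the 8, 2 averaged enough to be tested. Noxa1, whose product activates Nox1, was at 8.70 and 3.29 TPM in the saline controls and 29.0 and 42.1 TPM in the cerulein mice, with 39.0 and 45.6 TPM in polyI:C mice. Its level was higher than in saline controls by 2.59 under cerulein (adjusted p = 0.00327) and, in polyI:C mice, by 2.85 (adjusted p = 0.00241). Both polyI:C mice lay above both saline controls, as for Cyba, Ncf4 and 54.4% of all tested genes. Duox2, which makes hydrogen peroxide at epithelial surfaces, was at 0.952 and 0.234 TPM in saline controls, 0.455 and 1.80 TPM in cerulein mice and 3.13 and 4.68 TPM in polyI:C mice, higher than in saline controls by 2.07 (adjusted p = 0.0239). In polyI:C mice against saline controls 1 of the pair passed with the other scaling, 1 with voom and 0 to 2 with a mouse left out. Neither was called between polyI:C and cerulein mice by limma (1 was higher at an unadjusted p under 0.05, and voom called none).

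Of 7 tested factors known to act on the subunit promoters 5 rose under cerulein (Spi1, Cebpb, Irf1, Irf8 and Rela, median over the 7 of 1.44, 2 to 4 with a mouse left out, 3 with the other scaling). Over all genes 18.2% were called higher under cerulein, with a median of 0.45. Spi1 encodes PU.1, the myeloid factor on which Cybb, Ncf1 and Ncf4 depend. It was at 1.33 and 1.17 TPM in the saline controls and 8.73 and 9.27 TPM in the cerulein mice, with 2.55 and 1.52 TPM in polyI:C mice. The rise under cerulein was 2.44 (adjusted p = 0.00210), and the difference in polyI:C against cerulein mice was −1.94 (adjusted p = 0.0647). Irf1, itself induced by interferon, was at 7.35 and 6.50 TPM in saline controls, 28.3 and 29.0 TPM in cerulein mice and 21.1 and 27.7 TPM in polyI:C mice, higher than in saline controls by 1.98 and 1.73 (adjusted p = 0.000334 and 0.000583). Rela, a subunit of NF-kappa B, was the other factor called higher in polyI:C than in saline controls (1.91, adjusted p = 4.21e-05). No factor was called between polyI:C and cerulein mice by limma (4 were lower at an unadjusted p under 0.05, and voom called 1 lower).

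The genes with the most similar pattern were found for each member among those averaging 10 TPM or more, as the root mean square difference of centred log2 values over the 6 mice. For Cybb these were Wfdc17 (0.122), Emb (0.213) and Emilin2 (0.214). For Ncf1 they were Wfdc17 (0.248), Mrc1 (0.274) and H2-Ab1 (0.316), and for Rac2 H2-Eb1 (0.236), Hcls1 (0.280) and Wfdc17 (0.308). Wfdc17, a gene of macrophages, thus stood near 3 of the 5 subunits, at 38.6 and 22.1 TPM in saline controls, 86.1 and 117 TPM in cerulein mice and 24.3 and 27.3 TPM in polyI:C mice. For Ncf4 they were Pld4 (0.122), Fcgr3 (0.195) and Sirpa (0.235). For Cyba they were Efna1 (0.0788), Gm49342 (0.0808) and Ctsz (0.0938), none of them among the 3 nearest of another member. Efna1, an ephrin ligand, was at 6.09 and 5.20 TPM in saline controls, 29.2 and 31.5 TPM in cerulein mice and 22 and 24.3 TPM in polyI:C mice. Between the members themselves the smallest differences were those of Ncf1 and Rac2 (0.301) and Cybb and Ncf1 (0.306), and Cyba differed from the other 4 by 0.537 (Ncf4) to 1.10 (Ncf1). With 6 mice these values describe likeness only.

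In the GENCODE M21 annotation (GRCm38) Cybb (ENSMUSG00000015340) lies on chromosome X from 9435252 to 9487771, Cyba (ENSMUSG00000006519) on chromosome 8 from 122424776 to 122432930, Ncf1 (ENSMUSG00000015950) on chromosome 5 from 134220053 to 134229625 and Rac2 (ENSMUSG00000033220) on chromosome 15 from 78559167 to 78572783, all on the minus strand. Ncf4 (ENSMUSG00000071715) lies on the plus strand of chromosome 15 from 78244801 to 78262580. The values are sums over the exons of all transcripts of a gene, so isoforms were not told apart. None of the 5 shares a 100-base stretch of its transcripts, read in their own direction, with another gene. Opposite strands were not compared, so this does not cover the overlaps with Gtf2ird2 and Gm20388.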

How the data were processed

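RNA-sequencing of whole pancreas was analysed for 6 mice, 2 in each of 3 groups, with groups and replicate numbers taken from the labels. Per the labels all libraries were run in the same lane, and no source ties same-numbered mice to each other. P-values from limma set a difference against the spread between these mice. The variance of each gene was also drawn towards a prior fitted over all genes tested, so they depend on that prior too.

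The deposited values are TPM per gene and mouse. Per the labels the upstream tools were Trimmomatic for trimming, STAR for alignment (mm10) and HTSeq for counting. How counts became TPM, the lengths used and the strand setting are not given in the sources used here. The labels name both a ribosomal RNA removal kit and a stranded mRNA kit. The authors' own test was DESeq2, which was not used here because the tables hold no counts. No column was left unused (0).

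Symbols and exon lengths came from GENCODE M21, in which 22490 of 22556 identifiers were found. Testing kept the genes averaging 1 TPM or more and was done with limma 3.58.1 in R 4.3.3 on log2(TPM + 0.5), with 1 mean per group, the spread shared by all 6 mice and a variance prior following the mean TPM times exon length. Benjamini-Hochberg adjustment covered all genes tested. A single value was tested with scipy 1.17.1 by exact permutation. Reads per library were estimated from the spacing of low values. Between 51.2% and 62.4% of values under 20 reads lay within 0.1 of a whole number, against 19.2% to 20.7% with lengths shuffled, and since most other values were not whole, counts were not recovered. The limma fit was tested on simulated data. The read estimate was not.

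The members, gene lists and alternatives were chosen with earlier results of these data known, and some lists overlap. Some genes of these pathways are not reported here. Genes named are the 5 members, genes of the lists and, for each member, the 3 nearest in pattern. Alternatives were other pseudocounts, filters, scalings and variance priors, the replicate number as a block, the compared groups alone and leaving out each mouse. Voom on the estimated reads, and other pseudocounts and left-out mice for the relative levels, were added after the data were seen. Promoter sequences are from RefSeq, and those of Ncf4 and Rac2 were not used here.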

Additional observations from a re-analysis of the deposited data

How the results depend on the processing

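The cerulein calls of Cybb and Cyba, and the call of Cyba in polyI:C against saline controls, held in all 16 alternatives. The counts over all genes moved more. In cerulein mice against saline controls 1564 genes were higher with median-of-ratios scaling and 1797 with voom, and 1226 were lower with that scaling. In polyI:C against saline controls 1324 and 1502 were higher and 984 and 812 lower under these alternatives. In polyI:C against cerulein mice 90 genes were called without a filter (44 higher), 28 with the variance prior following the mean log2 value (14 higher, 14 lower), 41 without a variance trend (22 higher, 19 lower) and 323 with voom (112 higher, 211 lower). Members called lower there numbered 2 (Cybb and Ncf1) with a pseudocount of 1, with voom and with the compared groups alone, and 0 without a filter or under either other variance prior (Cybb at adjusted p = 0.0589, 0.0978 and 0.146). The cause of these shifts was not tested.

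Leaving out each mouse gave 2399 to 3648 genes in cerulein mice against saline controls (1953 to 3072 higher, 446 to 630 lower) with 2 to 5 members higher, 2 of them without either cerulein mouse, 0 to 80 genes in polyI:C against cerulein mice (0 to 48 higher, 0 to 46 lower) with 0 to 1 members lower, and 2508 to 3336 in polyI:C against saline controls (2166 to 2893 higher, 342 to 451 lower) with 0 to 1 members lower. The 0 came without either cerulein mouse or polyI:C mouse 2, and without polyI:C mouse 1 there were 53. A lone mouse was taken to vary like the others. Against saline controls the difference of polyI:C mice ranged from −0.48 to 0.22 for Cybb and from −1.17 to 0.013 for Rac2, above 0 without saline mouse 1 for both and not called there.

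For the level relative to leukocyte genes, the change from saline to cerulein was −0.62 (Cybb), −0.049 (Cyba), −0.52 (Ncf1), −0.036 (Ncf4) and −1.07 (Rac2) with monocyte and macrophage genes as reference, and 0.88 (Cyba) and 0.89 (Ncf4) with neutrophil genes. From cerulein to polyI:C it was −1.29 (Cybb), 0.15 (Cyba), −1.83 (Ncf1), −0.92 (Ncf4) and −1.27 (Rac2) with neutrophil genes. Pseudocounts of 0.1 and 1 gave −0.87 and −0.53 for Ncf1 in the latter and 1.09 and 0.28 for Ncf4 in the former. A change of the reference genes moved every member by the same amount within a comparison, also those without a value here.

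With replicate number as a block 3646, 124 and 3287 genes were called in the 3 comparisons against 3730, 142 and 3338 without it, and no call of a member changed. The number does not pair the mice, as same-numbered mice deviated from their groups with correlations of 0.01, 0.00 and 0.04. Depth limits Ncf4 most, at about 1 to 2 reads in saline controls.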
